A study of Mus musculus with 3 samples.

Results

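Probes for microRNAs (miRNAs) numbered late in the miRNA nomenclature gave the brightest spots of proliferating C2C12 myoblasts. Most of these spots were dimmer in differentiation medium and in a Wnt4-expressing subline. The 10 probes described here are mmu-miR-5100, mmu-miR-3968, mmu-miR-6366, mmu-miR-5097, mmu-miR-1902, mmu-miR-3963, mmu-miR-6412, mmu-miR-6364, mmu-miR-1983 and mmu-miR-5112, out of 1265 mouse miRNA probes on the array. They were chosen by name from measured values of these same 3 arrays, for being among the brightest on C2C12-PR or for being dimmer on C2C12-DF and W4-08-PR. Their brightness and their ratios are therefore given as a description, with no test, and all 10 were detected on all 3 arrays. A miRNA is a short RNA cut from a hairpin precursor, and it guides an Argonaute protein to messenger RNAs that pair with its seed, the bases near its 5′ end. Numbers are given to miRNAs in the order of their discovery, so a high number marks a miRNA that was named late, often from deep sequencing of small RNA. The targets of these 10 miRNAs are not described here.

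C2C12, a mouse myoblast line, fuses into myotubes once serum is lowered. W4-08-PR cells belonged to W4-08 (W408 in the sample descriptions), a subline of C2C12 stably transfected with V5-tagged Wnt4 under the CMV promoter. The subline was selected with blasticidin, and W4-08-PR cells were grown in DMEM with 10% fetal bovine serum. The paper describes this subline as able to form myotubes by itself, also in medium meant for proliferation. How far the arrayed W4-08-PR culture had differentiated was not tested. C2C12-DF cells were parental C2C12 in DMEM with 2% horse serum, and C2C12-PR cells were parental C2C12 in DMEM with 10% fetal bovine serum. Whether W4-08 is 1 clone was not given in the sources used here, and neither was a line carrying the vector without Wnt4 or the time spent in each medium before the arrays. Differentiation medium changed the amount and the kind of serum together. Each condition was hybridised to 1 single-colour 3D-Gene array, so no comparison has a replicate, a test or a p-value.

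On each array a probe had 1 spot, and its brightness is given in arbitrary units above the trimmed mean of 1664 blank spots, which was 99.9 units on W4-08-PR, 101 on C2C12-DF and 95.9 on C2C12-PR. A log2 ratio between arrays was taken after background correction with an offset of 50 and scaling to 16 spike control spots, and a probe was called where that ratio reached 1 in either direction, a 2-fold difference, with the probe detected on the brighter array. Each log2 ratio carries 1 technical SD, computed from the blank and spike spots, so the error holds nothing of the variation between cultures. The spike spots read 25132 to 41787 units before subtraction on the 3 arrays, above every probe described here. Detected miRNA probes numbered 477 on W4-08-PR, 370 on C2C12-DF and 339 on C2C12-PR. Of 4 muscle miRNAs (miR-206-3p, miR-133a-3p, miR-133b-3p and miR-1a-3p), 4 were detected on W4-08-PR, 3 on C2C12-DF and 3 on C2C12-PR, with sums of 3650, 405 and 122 units in that order, and the part of this difference in the results was not tested. Among 13 miRNAs of blood, neural, liver, epithelial and pluripotent cells, 1 was detected per array, none above 48.3 units.

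RefSeq's tables for GRCm38.p6 held a mature sequence for 8 of the 10 miRNAs and for 1020 of the 1265 probes. The 8 are shown because several resemble each other at the 5′ end. Each is written 5′ to 3′ with the seed, bases 2 to 8, in capitals.
miR-5100: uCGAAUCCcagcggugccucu
miR-6364: uCGAUCCCcagcacuccuguga
miR-6412: uCGAAACCauccucagcuacua
miR-3968: cGAAUCCCacuccagacacca
miR-3963: uGUAUCCCacuucugacac
miR-6366: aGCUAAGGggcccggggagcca
miR-1902: aGAGGUGCaguaggcaugacuu
miR-1983: cUCACCUGgagcauguuuucu

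No 2 of these miRNAs had the same seed, and only miR-1983 shared its seed with another probe on the array, miR-412-3p. The seeds of miR-5100, miR-6364 and miR-6412 all had the form CGANNCC, and they were the only 3 such seeds among the 1020 sequences. miR-3968 held the same form 1 base nearer its 5′ end. Anywhere in the mature sequence, CGANNCC occurred in 4 of the 8 miRNAs and in 9 of 1020 (0.88%), these 4 included. Its reverse complement GGNNUCG occurred in 3 of 1020. Among hairpins, CGANNCC occurred in 3 of the 7 listed ones and in 20 of 1005 (1.99%), and GGNNUCG in 35. The form is one that the listed sequences were seen to share, so nothing is read from these shares. The longest run of bases shared by a pair of the 8 was CGAAUCCCA, 9 bases, in miR-5100 and miR-3968. miR-3963 and miR-3968 shared AUCCCACU, 8 bases.

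The genes lie at separate places in GRCm38.p6. Mature miR-5100 maps to chr11:60728698-60728718 on the plus strand, with its hairpin inside Mief2, and miR-3968 to chr11:115447969-115447989 on the minus strand, with its hairpin inside Trim80. miR-6364 is at chr16:5215790-5215811 on the minus strand inside AU021092, and miR-6366 at chr16:18165093-18165114 on the minus strand, overlapping no other RefSeq gene. miR-6412 is at chr10:122648412-122648433 on the plus strand inside the long non-coding RNA gene Gm36284. miR-1902 is at chr2:104428871-104428892 on the minus strand inside Hipk3, which codes for a protein kinase, and miR-3963 at chr3:151023839-151023857 on the minus strand, overlapping no other gene. miR-1983 is at chr13:21896930-21896950 on the minus strand. Its hairpin encloses the tRNA gene n-TItat14, and 13 of the 21 bases of the mature sequence lie within that tRNA gene. Of 1228 miRNA genes in the annotation, Mir1983 was the only one that overlapped a tRNA gene.

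Hairpin sequences were held for 7 of the 10, and 3 of them are shown because they carry the letters GUUCGANNC, given in capitals. In most tRNAs these letters form part of the T arm, and in the tRNA gene they are part of an internal promoter. Each hairpin is written 5′ to 3′.
Mir5100: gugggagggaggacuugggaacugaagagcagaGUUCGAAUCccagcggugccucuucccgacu
Mir6364: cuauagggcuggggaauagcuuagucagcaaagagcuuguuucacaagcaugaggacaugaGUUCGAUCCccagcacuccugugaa
Mir1983: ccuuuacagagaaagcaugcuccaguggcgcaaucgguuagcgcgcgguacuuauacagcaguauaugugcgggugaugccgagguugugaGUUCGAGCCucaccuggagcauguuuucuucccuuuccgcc

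The mature sequence began at base 36 of the Mir5100 hairpin, at base 64 of Mir6364 and at base 100 of Mir1983, so in Mir5100 and Mir6364 it started inside the capitals and in Mir1983 at the last of them. GUUCGANNC occurred in 5 of 1005 mouse hairpins (0.498%), these 3 included, and its reverse complement in 1. Among mature sequences, GUUCGANNC occurred in 1 of 1020 and in 0 of the 8 listed. The 3 hairpins are shown for carrying these letters, so nothing is read from their share. CCA was at the 3′ end of miR-3968 and miR-6366, and of 15 of the 1020 mature sequences (1.47%). These are matches of letters, and the RNA that each spot captured was not sequenced.

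The brightest probe on every array was that of miR-5100. It read 11605 units on W4-08-PR, 6998 on C2C12-DF and 19680 on C2C12-PR, and ranked 1 of 1265 on each. Its log2 ratio over C2C12-PR was -0.83 ± 0.064 in W4-08-PR, short of the limit, and -1.5005 ± 0.11 in C2C12-DF, a 2.83-fold difference. Brightness of different probes depends on the probe as well as on the amount of RNA, so the ranks order spots and not copies of a miRNA. In such bulk RNA, fewer cells holding a small RNA and less of it per cell cannot be told apart.

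miR-3968 read 8645 units on W4-08-PR, 3292 on C2C12-DF and 18879 on C2C12-PR, and ranked 2, 4 and 2 on these arrays. Its log2 ratios over C2C12-PR were -1.19 ± 0.064 in W4-08-PR (2.29-fold lower) and -2.51 ± 0.11 in C2C12-DF (5.71-fold lower). On C2C12-PR, miR-3968 was nearly as bright as miR-5100, at a ratio of 0.959, but the ratio was 0.745 on W4-08-PR and 0.470 on C2C12-DF. Such a ratio within an array needs no scaling between arrays.

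miR-6366 read 7465 units on W4-08-PR, 4049 on C2C12-DF and 10577 on C2C12-PR, with ranks 3, 2 and 3. Its log2 ratio was -0.57 ± 0.064 in W4-08-PR and -1.39 ± 0.11 in C2C12-DF over C2C12-PR. Its ratio to miR-5100 on the same array was 0.643 on W4-08-PR and 0.579 on C2C12-DF, against 0.537 on C2C12-PR, and between C2C12-DF and C2C12-PR this differed by less than 1 technical SD.

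miR-5097 read 3749 units on W4-08-PR, 1228 on C2C12-DF and 7374 on C2C12-PR. It kept a high rank on W4-08-PR, 5 against 4 on C2C12-PR, and ranked 20 on C2C12-DF. The log2 ratios over C2C12-PR were -1.04 ± 0.064 in W4-08-PR and -2.54 ± 0.11 in C2C12-DF. The gap between these cultures, a log2 ratio of 1.505 ± 0.15 for W4-08-PR over C2C12-DF, was the widest of the 10. The W4-08-PR value lies within 1 technical SD of the limit.

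miR-1902 was the exception. It read 4671 units on W4-08-PR, 3812 on C2C12-DF and 4047 on C2C12-PR, and ranked 4, 3 and 5. Its log2 ratios over C2C12-PR were 0.13 ± 0.064 in W4-08-PR and -0.10 ± 0.11 in C2C12-DF, about 2 technical SD above 0 and within 1 technical SD of it, and it was listed for its brightness alone. Set against miR-1902 on the same array, miR-5100 was 2.48 times as bright on W4-08-PR and 1.84 times on C2C12-DF, against 4.86 times on C2C12-PR.

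Of the 7 probes that led on C2C12-PR, miR-3963 and miR-6412 had the lowest ranks on the other arrays. miR-3963 read 882 units on W4-08-PR, 543 on C2C12-DF and 2740 on C2C12-PR, and ranked 29, 37 and 6. Its log2 ratios over C2C12-PR were -1.64 ± 0.065 in W4-08-PR (3.11-fold lower) and -2.22 ± 0.12 in C2C12-DF (4.66-fold lower). miR-6412 read 656 units on W4-08-PR, 227 on C2C12-DF and 2077 on C2C12-PR, and ranked 41, 72 and 7. It had the lowest ratio of the 10 in both comparisons, -1.64 ± 0.065 in W4-08-PR (3.12-fold lower) and -2.89 ± 0.12 in C2C12-DF (7.40-fold lower). In W4-08-PR miR-6412 and miR-3963 differed by less than the technical SD, and in C2C12-DF miR-6412 lay below miR-5097, its nearest neighbour, by 0.35 ± 0.16. The paper also measured miR-3963 and miR-6412 by quantitative PCR in C2C12 and reports both as significantly lower in differentiation medium. In its values the drop was smaller for miR-6412 than for miR-3963, the reverse of their order on the C2C12-DF array.

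**Figure D1:**
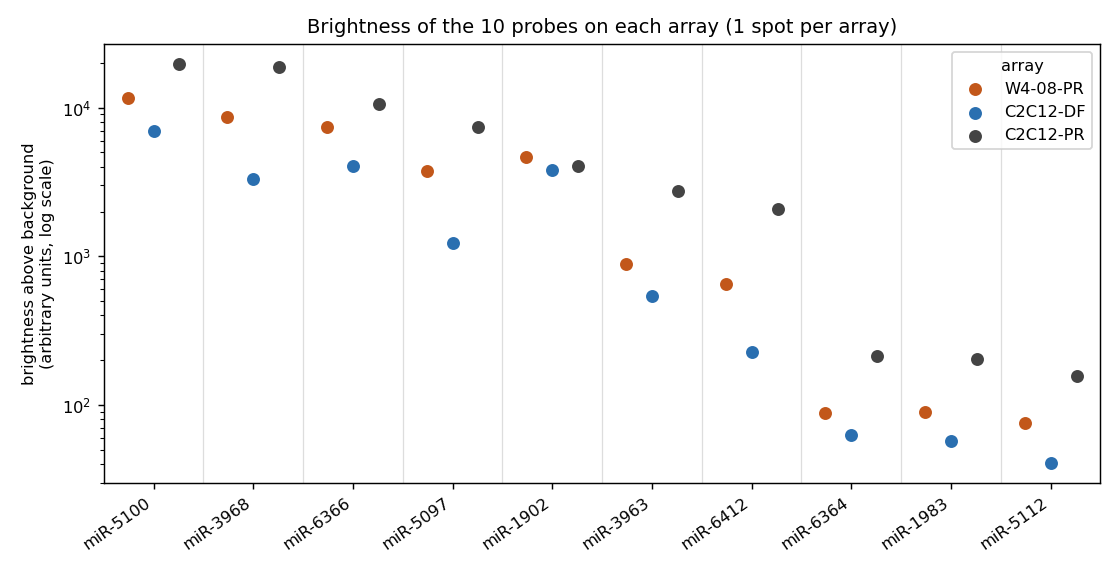
Brightness above background of the 10 probes (arbitrary units, log axis) on W4-08-PR, C2C12-DF and C2C12-PR, 1 point per array and probe, with no error bars because each probe had 1 spot. The points of C2C12-PR are the highest for every probe but miR-1902, whose 3 points lie between 3812 and 4671 units.

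miR-6364, miR-1983 and miR-5112 were far dimmer than the rest. miR-6364 read 88.9 units on W4-08-PR, 62.5 on C2C12-DF and 214 on C2C12-PR. miR-1983 read 89.5, 57.3 and 203 units and miR-5112 read 75.6, 40.7 and 156 units on the same arrays in that order. Their ranks were 70, 75 and 90 on C2C12-PR and between 137 and 180 on the other arrays. In C2C12-DF the log2 ratios over C2C12-PR were -1.14 ± 0.14 for miR-6364, -1.14 ± 0.14 for miR-1983 and -1.07 ± 0.15 for miR-5112, all within 1 technical SD of the limit. In W4-08-PR they were -0.93 ± 0.096, -0.87 ± 0.097 and -0.73 ± 0.10, and none was called. The offset draws ratios of dim probes toward 0, and the plain ratios of brightness over C2C12-PR were 0.416, 0.441 and 0.485 in W4-08-PR and 0.292, 0.282 and 0.261 in C2C12-DF. With plain background subtraction all 3 passed the limit in W4-08-PR, at log2 ratios of -1.34, -1.25 and -1.12.

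**Figure D2:**
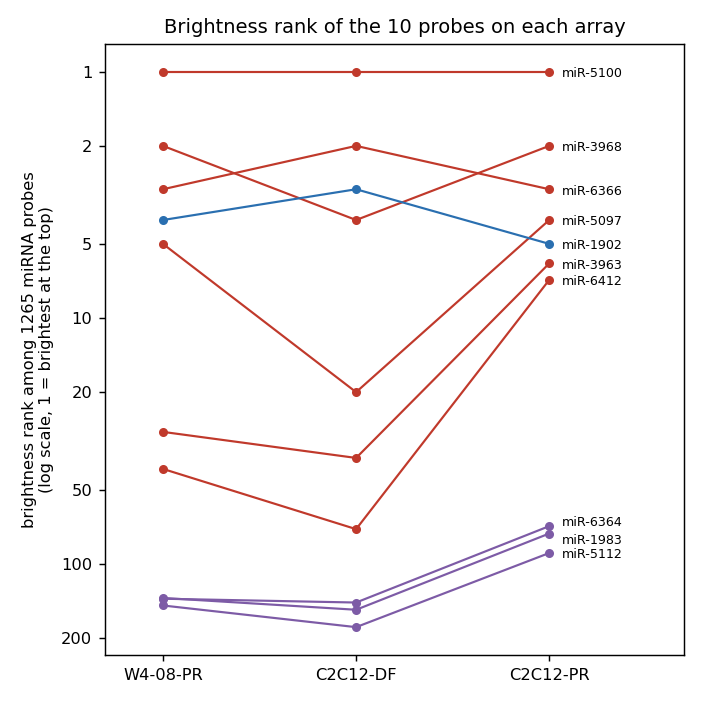
Brightness rank of the 10 probes among 1265 miRNA probes on each array (log axis, rank 1 at the top), in blue for miR-1902, red for the other 6 of the 7 brightest on C2C12-PR and purple for the 3 dimmer probes. miR-5100 stays at rank 1, while miR-6412 stands at 41 on W4-08-PR and 72 on C2C12-DF, against 7 on C2C12-PR.

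In C2C12-DF, 9 of the 10 probes were called lower than in C2C12-PR, all except miR-1902. The median log2 ratio of the 10 was -1.44, against 0.090 for the other 267 probes detected on all 3 arrays. Over all probes detected on either array, 18 of 424 were called lower (4.25%) and 3 higher. The choice of the 10 used this comparison, so the share is set beside the count and nothing is read from it. With quantile normalization the count was 6, since miR-5100 (0), miR-6366 (0.38) and miR-3968 (-0.84), the 3 brightest on C2C12-PR, no longer passed the limit. Outside the 10, the lowest log2 ratio among the 267 was -1.20.

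Placed in order, miR-5097, miR-3968 and miR-3963 followed each other in C2C12-DF with no step over 2 technical SD, whereas the step between miR-3963 and miR-5100, 0.72 ± 0.16, and that between miR-5112 and miR-1902, 0.97 ± 0.19, were larger than that. Nor was there such a step along miR-5100, miR-6366, miR-1983, miR-6364 and miR-5112. The miRNAs with the CGANNCC letters, miR-6412, miR-3968, miR-5100 and miR-6364, were spread over this order. The order also rests on the offset, which draws ratios of dim probes toward 0. With plain background subtraction miR-5112 (-1.95), miR-1983 (-1.84) and miR-6364 (-1.79) lay below miR-5100 (-1.51) and miR-6366 (-1.40).

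**Figure D3:**
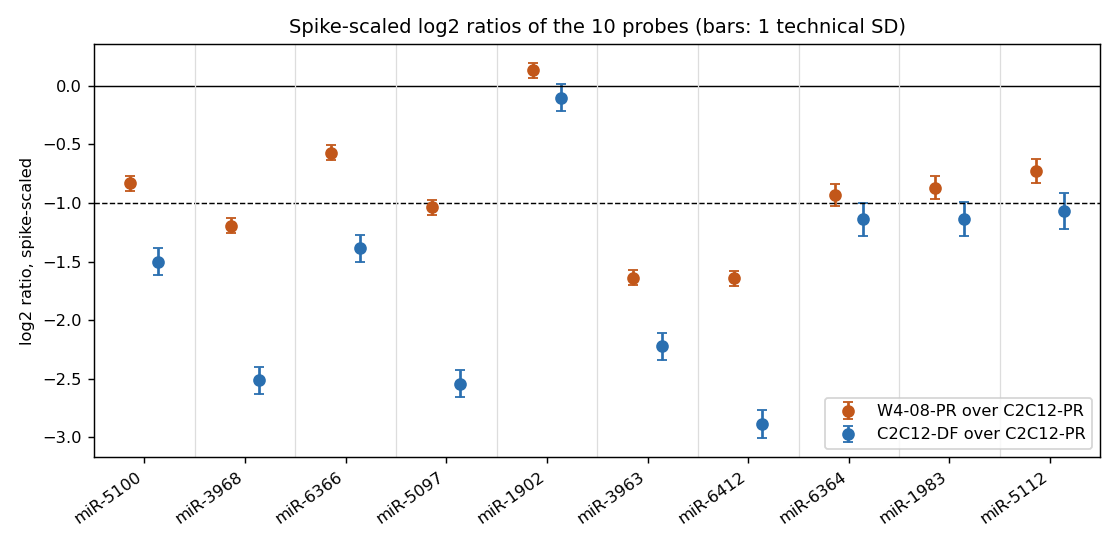
Spike-scaled log2 ratios of the 10 probes for W4-08-PR over C2C12-PR (orange) and C2C12-DF over C2C12-PR (blue), with bars of 1 technical SD, a solid line at 0 and a dashed line at the limit of -1. In C2C12-DF 9 probes lie below the dashed line, and in W4-08-PR 4 do.

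In W4-08-PR, 4 of the 10 were called lower than in C2C12-PR: miR-6412, miR-3963, miR-3968 and miR-5097. The median log2 ratio was -0.90, against 0.077 for the other 267 probes, and 9 of the 10 had a ratio below 0. Over all probes, 7 of 514 were called lower (1.36%) and 11 higher, and the choice of the 10 used this comparison too. Both comparisons share the C2C12-PR array. The number of calls in W4-08-PR also rested on the scale: none of the 10 passed the limit in the authors' processed values, and 8 did with scaling to the 75th percentile of the detected probes.

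W4-08-PR against C2C12-DF does not use C2C12-PR. The choice of the 10 used values of both these arrays, however, so nothing is read from the shares given here. On the spike scale all 10 probes were brighter in W4-08-PR, with a median log2 ratio of 0.63, against 0.046 for the other 267 probes. Called higher were miR-5097, miR-3968 (1.32 ± 0.15) and miR-6412 (1.24 ± 0.15), 3 of the 10, beside 9 of 524 probes in all (1.72%). These 3 and miR-6366 (0.82 ± 0.15), miR-5100 (0.67 ± 0.15) and miR-3963 (0.58 ± 0.15) differed between the 2 cultures by over 2 technical SD. The other 4, miR-1902, miR-1983, miR-6364 and miR-5112, had ratios of 0.21 to 0.34 and did not. For the dim probes among them the offset draws this ratio toward 0. With plain background subtraction it was 0.59 for miR-1983, 0.45 for miR-6364 and 0.84 for miR-5112, against 0.68 for miR-5100. The count of 3 was 1 with quantile normalization and 9 in the authors' processed values. In the authors' values the median of all probes detected on 3 arrays was itself 0.74 for this ratio, against 0.056 on the spike scale. With quantile normalization the ratio of W4-08-PR over C2C12-DF was -0.46 for miR-1902, -0.38 for miR-6366 and 0 for miR-5100, and with scaling to the 75th percentile it was -0.018 for miR-1902 and -0.046 for miR-6364.

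The order C2C12-DF below W4-08-PR below C2C12-PR was seen in 9 of the 10 probes, and in 40 of the 277 probes detected on all 3 arrays (14.4%), or 31 of the 267 others. miR-1902 had W4-08-PR highest. This order follows in part from how the 10 were chosen.

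The 10 probes held much of the light on the arrays. They gave 32.4% ± 0.55 of the summed brightness of the detected miRNA probes on W4-08-PR and 22.6% ± 0.46 on C2C12-DF, against 53.3% ± 0.64 on C2C12-PR (technical SD, 1 array each). miR-5100 alone gave 9.93% on W4-08-PR, 7.80% on C2C12-DF and 15.9% on C2C12-PR. On the spike scale the 10 summed to 36091 units on W4-08-PR and 20065 on C2C12-DF, against 65947 on C2C12-PR. The sum of the other 267 probes ran the other way, with 72107 units on W4-08-PR and 67102 on C2C12-DF, against 56584 on C2C12-PR. Each share is taken over the probes detected on its own array. A share that is highest on C2C12-PR follows in part from how the 10 were chosen, so nothing is read from this contrast.

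**Figure D4:**
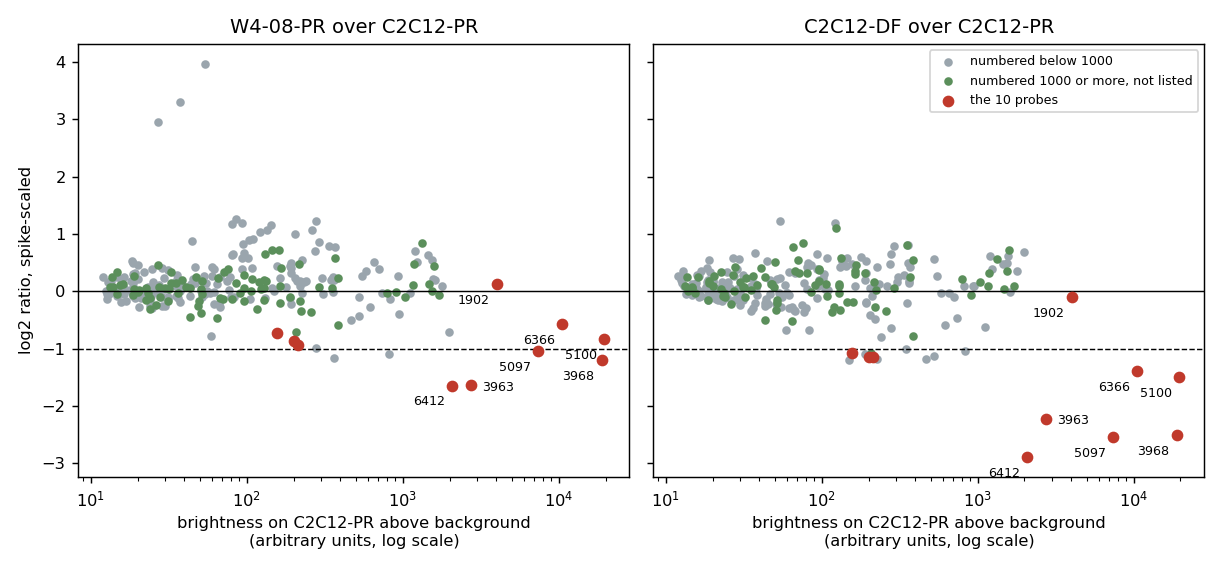
Spike-scaled log2 ratio of each of the 277 probes detected on all 3 arrays against its brightness on C2C12-PR (arbitrary units above background, log axis), for W4-08-PR over C2C12-PR (left) and C2C12-DF over C2C12-PR (right), with the 10 probes in red, other probes numbered 1000 or more in green and those below 1000 in grey. Above 2000 units only red points are present, and 6 of these 7 lie below 0 in both panels.

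Above 1000 units on C2C12-PR stood 24 probes, 7 of them listed here. Of these, 8 were numbered 1000 or more and not among the 10, and their median log2 ratio over C2C12-PR was 0.12 in W4-08-PR and 0.24 in C2C12-DF. The 9 numbered below 1000 had medians of 0.22 and 0.48 in the same order. Because the 10 were chosen with these values, nothing is read from the medians of the probes left out. No probe outside the 10 was above 1989 units on C2C12-PR, so the brightest of the 10 had no unlisted probe of like brightness. Just below miR-6412 in brightness on C2C12-PR lay miR-125b-5p, with 1256 units on W4-08-PR, 3289 on C2C12-DF and 1989 on C2C12-PR. The next probes numbered below 1000 were miR-23a-3p, miR-690, miR-23b-3p and let-7c-5p, whose log2 ratios in C2C12-DF over C2C12-PR ran from -0.017 (miR-690) to 0.61 (miR-23b-3p). No probe numbered 1000 or more outside the 10 reached 2077 units on C2C12-PR, and the next of them were miR-3100-3p (1701 units), miR-2137 (1592) and miR-5126 (1543).

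The calls were also counted by miRNA number. Of 451 probes numbered 1000 or more, 116 were detected on C2C12-PR. Called lower were 4 in W4-08-PR, all of them listed here, and 10 in C2C12-DF, of which 9 are listed here. The remaining one was miR-3107-3p, just outside the list, with 111 units on W4-08-PR, 65.1 on C2C12-DF and 207 on C2C12-PR and a log2 ratio of -1.07 ± 0.14 in C2C12-DF, equal to that of miR-5112 to the second decimal. Of 814 probes numbered below 1000, 223 were detected on C2C12-PR, and the calls of lower brightness were 3 for W4-08-PR and 8 for C2C12-DF. Since the 10 were chosen for a late number and for their values, nothing is read from the difference between these counts. Without the 10, the probes numbered 1000 or more that were detected on all 3 arrays had a median log2 ratio over C2C12-PR of 0.051 (W4-08-PR) and 0.12 (C2C12-DF). All 10 names lack the ending that marks which arm of the hairpin a miRNA comes from, as do 47.2% of the 451 probes numbered 1000 or more and 23.2% of all probes.

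Ratios of probes that share letters with the 10 are given as values, and no relation between letters and ratio was tested. Within the 10, the pairs with the longest shared runs were miR-5100 with miR-3968 and miR-3963 with miR-3968. These 3 miRNAs were called lower in C2C12-DF, but so were 9 of the 10, whose choice used this comparison. Nothing is read from it about shared letters. miR-191-5p holds GAAUCCCA, 8 bases found also in miR-5100 and miR-3968, and its log2 ratio over C2C12-PR was 0.41 ± 0.098 in W4-08-PR and 0.58 ± 0.14 in C2C12-DF. miR-711 shares the 9 bases CCCGGGGAG with miR-6366, and its log2 ratio was 1.23 ± 0.072 in W4-08-PR and 0.65 ± 0.12 in C2C12-DF. miR-125a-3p shares the 7 bases GGGAGCC with miR-6366, and its log2 ratio was -0.50 ± 0.071 in W4-08-PR and -1.18 ± 0.12 in C2C12-DF. Outside the 10, the CGANNCC letters occurred in 5 mature sequences, of which 4 were detected on C2C12-PR. Their log2 ratios in C2C12-DF over C2C12-PR ran from -0.46 (miR-375-5p) to 0.56 (miR-1195), and none was called.

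Of the probes detected on all 3 arrays, those whose pair of ratios over C2C12-PR lay nearest to the medians of the 10 were miR-3107-3p, miR-125a-3p, miR-652-5p, miR-3072-3p and miR-487b-3p, by Euclidean distance over the 2 log2 ratios of 3 arrays. miR-125a-3p read 335 units on W4-08-PR, 173 on C2C12-DF and 471 on C2C12-PR. miR-487b-3p read 11.1 units on W4-08-PR, 13.0 on C2C12-DF and 59.0 on C2C12-PR. The dimmest detected probe read 9.77 units on W4-08-PR and 10.8 on C2C12-DF. The ratios of miR-487b-3p, -0.78 in W4-08-PR and -0.68 in C2C12-DF, therefore rest on readings close to that floor. Besides miR-6412, miR-5097, miR-3968 and miR-3963, 1 probe was called lower in both comparisons, that of miR-669e-5p. It read 65.5 units on C2C12-PR and was not detected on the other arrays. Its log2 ratios, -1.11 in W4-08-PR and -1.05 in C2C12-DF, therefore rest on readings below detection. Set to the dimmest detected probe instead, it was at least 1.84-fold lower in W4-08-PR and 1.73-fold lower in C2C12-DF, short of the limit. These bounds include the offset, which draws ratios of dim probes toward 0.

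The direction of the ratios held on most scales for all but miR-1902. For the 9 probes other than miR-1902, this ratio over C2C12-PR was negative in 70 of 72 pairs of probe and alternative scale in C2C12-DF, and in 68 of 72 in W4-08-PR. Of the 6 exceptions, 5 came from quantile normalization, which gives the brightest probes of all arrays the same values, and all 5 were at 0 except miR-6366, at 0.38 in C2C12-DF. The sixth was miR-6366 in the authors' processed values, at 0.20 in W4-08-PR. The ratio of miR-1902 changed sign between scales. In C2C12-DF it went from -0.10 on the spike scale to 0.85 with quantile normalization. In W4-08-PR it went from 0.13 to -0.18 with scaling to the 75th percentile. All scales rework the same spots, and the 9 probes were chosen in part for this direction, so the pairs are not independent support for it.

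**Figure D5:**
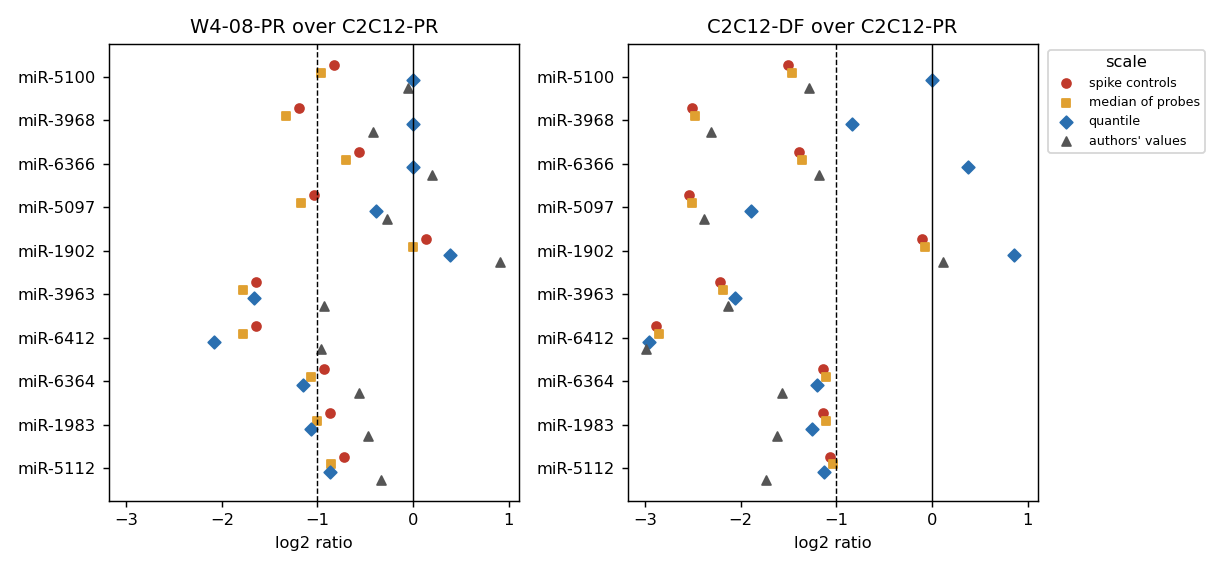
Log2 ratios of the 10 probes for W4-08-PR over C2C12-PR (left) and C2C12-DF over C2C12-PR (right) under 4 scales: spike controls, the median of the probes detected on all arrays, quantile normalization and the authors' processed values, with a solid line at 0 and a dashed line at -1. With quantile normalization miR-5100 sits at 0 in both panels, and in the authors' values no probe of W4-08-PR passes -1.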

How the data were processed

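Total RNA of W4-08-PR, C2C12-DF and C2C12-PR cells was labelled with Cy5 and each put on 1 array of the Toray 3D-Gene mouse miRNA series. The sample descriptions name a Qiagen miRNeasy kit for the extraction, whereas the paper names Isogen. The authors deposited linear spot intensity values from which no background had been taken, and processed intensity values, which follow the spot intensity less the blank spots' trimmed mean (5% at each end), multiplied by 0.914 (W4-08-PR), 0.647 (C2C12-DF) or 0.561 (C2C12-PR) to set the median of the detected probes to 25. Detected probes are those with a processed value. Scanner settings were not given in the sources used here. Each array was assigned to its condition by its label.

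The intensities were corrected with normexp (offset 50) in limma 3.58.1 (R 4.3.3), taken as log2 and scaled to the mean of 16 spike spots. Python 3.11.15 (numpy 2.4.6, pandas 2.3.3, matplotlib 3.10.9) ran the remaining steps and ViennaRNA 2.7.2 the folds. No probe was removed and no test was run, as each condition had 1 array, which limits the precision. Ratios were checked on simulated arrays. A miRNA was called where its log2 ratio reached 1 in either direction. Alternatives were quantile normalization, scaling to the median or the 75th percentile, no scaling between arrays, the median of the spikes, plain subtraction, an offset of 10, the authors' values and other size limits. Sequences and gene neighbours came from RefSeq's tables for GRCm38.p6, matched by name.

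The 10 probes and every list were chosen with earlier results of these data known. Other probes named are those called lower in both comparisons, the 5 nearest to the medians of the 10, the brightest probes just outside the list, and those that share letters with a listed miRNA, which were chosen after their values were seen.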

Additional observations from a re-analysis of the deposited data

How the results depend on the processing

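No paired analysis was possible because each condition had 1 array, and for the same reason no array could be left out. The count of the 10 called lower in C2C12-DF, 9, was 6 with quantile normalization and 4 at a log2 limit of 2. The count called lower in W4-08-PR, 4, was 8 with scaling to the 75th percentile, 7 with plain background subtraction, 0 in the authors' values, 0 at a log2 limit of 2 and 8 at 1.5-fold. The count called higher in W4-08-PR over C2C12-DF, 3, was 1 with quantile normalization, 9 in the authors' values, 0 at a log2 limit of 2 and 5 at 1.5-fold.

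The median log2 ratio in C2C12-DF over C2C12-PR, -1.44, was -1.17 with quantile normalization, -1.90 with plain subtraction and -1.68 in the authors' values. In W4-08-PR over C2C12-PR, the median of -0.90 was -0.63 with quantile normalization, -1.04 with median scaling, -1.22 with the 75th percentile, -0.83 with no scaling, -1.16 with plain subtraction, -1.06 with an offset of 10 and -0.38 in the authors' values. In W4-08-PR over C2C12-DF, the median of 0.63 was 0.22 with quantile normalization, 0.46 with median scaling, 0.37 with the 75th percentile and 1.30 in the authors' values. With all probes counted, the share of summed brightness was 31.8% on W4-08-PR, 22.1% on C2C12-DF and 52.5% on C2C12-PR. The ratio of miR-6366 in C2C12-DF over C2C12-PR turned to 0.38 with quantile normalization, as its rank was higher on C2C12-DF. The authors' values raised the median of all probes detected on 3 arrays to 1.05 in W4-08-PR over C2C12-PR and to 0.41 in C2C12-DF over C2C12-PR, against 0.071 and 0.086 on the spike scale, so relative to other probes the 10 were low there too. In W4-08-PR over C2C12-DF the median of all these probes was 0.74 in the authors' values, against 0.056 on the spike scale. The cause of the remaining shifts was not tested. Spike controls do not follow the amount of cells or RNA taken, and all of them read above every probe described here. Having 1 array per condition limits every ratio.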

Other observations

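The 8 listed miRNAs with a sequence had a median G and C content of 53.6%, from 45.5% (miR-6412) to 72.7% (miR-6366), against 54.5% for 264 other probes with a sequence that were detected on C2C12-PR. The predicted folding energy of the 7 hairpins ran from -0.46 kcal/mol per base for Mir6366 to -0.29 for Mir3968, and the median of 1005 mouse hairpins was -0.41. Mir3968 folded more weakly than all but 9.05% of hairpins, Mir3963 all but 16.3% and Mir1902 all but 24.5%, while Mir5100 stood at 42.9%.

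Probe by probe, the ratio to miR-1902 on the same array fell most for miR-6412, which stood at 0.140 of miR-1902 on W4-08-PR and 0.0595 on C2C12-DF, against 0.513 on C2C12-PR. miR-5097 was 0.803 of miR-1902 on W4-08-PR and 0.322 on C2C12-DF, against 1.82 on C2C12-PR. These ratios are free of any scaling between arrays, but they take on the change of miR-1902 itself.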
